A study of Mus musculus with 79 samples.

Results

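RNA from mouse cells with all 3 TET genes targeted was compared with RNA from their parental line on the first day of conversion to epiblast-like cells. The comparison took every library of the TET KO and TET WT lines at day 1 of the conversion (EpiLC D1), which were 3 TET KO and 3 TET WT libraries of the 79 in the series. TET KO is a triple knockout of Tet1, Tet2 and Tet3 and TET WT is the wild-type line it was made from. The cells were embryonic stem cells (ESCs) kept in 2i/LIF, which were sampled at day 0 (ESC D0) and after 1 and 2 days of the conversion (EpiLC D1 and D2). A second pair of lines, DNMT KO (a triple knockout of Dnmt1, Dnmt3a and Dnmt3b) and its own parental line DNMT WT, was sampled in the same way. The 6 libraries were set beside 3 TET KO and 3 TET WT libraries at ESC D0, the same numbers at EpiLC D2, and 3 DNMT KO and 2 DNMT WT libraries at EpiLC D1. Each genotype is represented by 1 line, so the knockout and any other difference between a line and its parent cannot be told apart. Whether the replicates came from separate cultures is not stated in the labels, and p-values therefore measure the spread between these libraries alone, which may be technical.

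TET enzymes oxidise 5-methylcytosine to 5-hydroxymethylcytosine and further products, which leads to loss of DNA methylation at CpG sites. DNA methyltransferases place that methylation. In 2i/LIF, inhibitors of MEK and GSK3 with the cytokine LIF hold mouse ESCs in naive pluripotency, a state like the preimplantation epiblast with little DNA methylation. During conversion to EpiLCs the naive factors are shut off, factors of the formative state such as Otx2, Pou3f1 and Fgf5 are switched on, and DNA methylation rises across the genome.

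The targeted genes were examined first. Tet1 (chr10:62804570-62908996, GRCm38), the most abundant TET gene in these cells, had 5.83, 5.58 and 4.65 RPKM (reads per kilobase of exon, scaled to the reads of the library) in TET KO libraries, against 15.2, 15.6 and 16.7 RPKM in TET WT libraries. All TET KO libraries lay under all TET WT libraries, with a log2 change of -1.49 ± 0.11 (SE, limma adjusted p = 2.58e-06). Tet2 had 4.21, 3.70 and 4.37 RPKM in TET KO, against 6.69, 7.60 and 7.38 RPKM in TET WT, and Tet3 was at or below 0.506 RPKM in all 6 libraries. The groups did not overlap for either gene, and neither log2 change (-0.75 for Tet2 and -0.50 for Tet3) reached the size of 1 used for a call. Residual transcript remained for Tet1 and Tet2, and because the sources used here do not give the deleted exons, levels summed over whole genes check the labels only in part. At EpiLC D2 Tet1 did not separate the lines: libraries labelled TET KO had 9.18, 13.5 and 12.1 RPKM and libraries labelled TET WT had 8.79, 8.57 and 19.3 RPKM.

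Among other genes of the methylation machinery, 1 was called. Dnmt3a, Dnmt3b and Dnmt3l, which carry or aid de novo methylation, had log2 changes of 0.06, -0.28 and -0.14, and none was called. Dnmt1 and Uhrf1, which maintain methylation at replication, were at 20 ± 1.73 and 68.1 ± 5.55 RPKM in TET KO, against 32.8 ± 1.10 and 119 ± 3.26 RPKM in TET WT (SD, n = 3 each). Their log2 changes of -0.70 and -0.80 stayed under the size for a call. Among 19 readers of methylated CpG and base excision genes, 1 was called: Gadd45a (chr6:67035096-67037457), a stress-inducible gene linked to DNA repair and demethylation. It had 188, 189 and 194 RPKM in TET KO libraries, against 52.5, 52.0 and 53.2 RPKM in TET WT libraries. This separation was wide against the spread within either group, with a log2 change of 1.85 ± 0.04 (limma adjusted p = 3.57e-10). At ESC D0 the same gene had 6.33 RPKM in TET KO and 4.72 RPKM in TET WT.

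Deposited values lie on steps that give each library's depth in units of 1 step, which was 10.7 to 12.3 M units in the 6 libraries, and 1 unit on a gene of 2 kb was worth 0.0408 to 0.0469 RPKM. Replicates correlated at 0.9936 to 0.9944 in TET KO and at 0.9944 to 0.9949 in TET WT (Pearson, across genes on the log2 scale, which are not independent). Mitochondrially encoded transcripts took 0.110 to 0.14% of the units in TET KO libraries and 0.189 to 0.225% in TET WT libraries. Some markers of primitive streak (T, Mixl1), fibroblast feeders (Col1a1, Postn) and primitive endoderm (Gata4, Gata6, Sox17) were each under 0.6 RPKM in all 6 libraries. Eomes, of streak and trophoblast, had 1.30 to 1.81 RPKM in TET KO and 2.51 to 2.82 RPKM in TET WT. Not all listed genes were so low. The 15 fibroblast genes summed to 10.8 to 11.6 RPKM in TET KO and 9.52 to 10.6 RPKM in TET WT. The 23 primitive and visceral endoderm genes summed to 224 to 255 RPKM in TET KO and 250 to 262 RPKM in TET WT. Because these are bulk RNA samples, fewer cells of a type and less RNA per cell cannot be told apart.

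Of 15267 genes tested, 1011 (6.62%) were called, which here means a limma adjusted p below 0.05 together with a log2 change of 1 or more in either direction. Of these, 511 (3.35% of the tested genes) were higher and 500 (3.28%) were lower in TET KO. Both shares are the background for every list count in this report, and no list count was tested against them. The share of calls that were higher was 50.5%, and it was 64.8% (690 higher, 374 lower) after centring each library on its median, which moved the median change of all genes by 0.116. Differences under the size of 1 were common, since 7760 genes had an adjusted p under 0.05. The libraries of both groups did not overlap, with TET KO higher, for 4156 genes (27.2%) and, with TET KO lower, for 5117 genes (33.5%), so a gap between groups was not rare in itself.

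**Figure D1:**
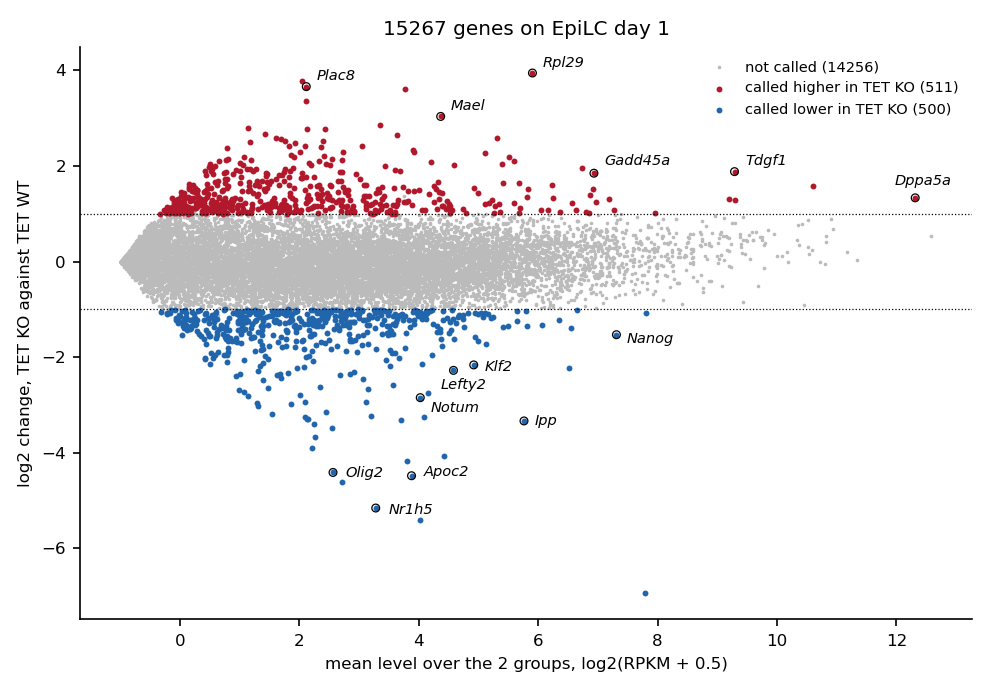
Each point is 1 of the 15267 genes tested at EpiLC D1, with its mean level over TET KO and TET WT libraries on the x axis, log2(RPKM + 0.5), and the log2 change of TET KO against TET WT on the y axis. The 511 genes called higher are red, the 500 called lower are blue, dotted lines mark a log2 change of 1 in either direction, and circled genes are named in the text.

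Several naive pluripotency genes were lower in TET KO on this day, with exceptions. Of 22 naive genes tested, 6 were called lower (Klf2, Prdm14, Nr5a2, Tbx3, Nanog and Klf5), 2 were called higher (Dppa5a and Dppa3) and 14 were not called. The log2 change was negative for 16 of the 22 and positive for 6. Fgf4 and Sox15, not called, had means of 83.3 and 15.7 RPKM in TET KO, against 56.2 and 10.4 RPKM in TET WT. The median log2 change of the list was 0.69 below that of all genes tested. Over the alternative settings, 4 to 7 members were lower and 1 or 2 higher. With genes of chromosomes 8 and 14 left out, which removes Klf2, Klf5 and Zfp42, 4 of 19 were lower.

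The promoter sequences of the pair of naive genes with the largest changes that have an entry in the RefSeq promoter table (GRCm38.p6) are shown because CpG sites are where TET enzymes and DNA methyltransferases act. Each run is the 250 bases before the transcription start, 5′ to 3′ on the strand of the gene, with CG in capitals.
Klf2 (chr8:72318812-72319061, + strand): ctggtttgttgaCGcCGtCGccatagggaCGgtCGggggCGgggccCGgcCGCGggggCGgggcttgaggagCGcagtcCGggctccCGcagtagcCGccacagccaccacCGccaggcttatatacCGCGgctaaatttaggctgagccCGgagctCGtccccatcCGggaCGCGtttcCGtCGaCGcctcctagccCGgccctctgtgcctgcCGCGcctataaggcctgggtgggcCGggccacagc
Nr5a2 (chr1:136960449-136960698, - strand): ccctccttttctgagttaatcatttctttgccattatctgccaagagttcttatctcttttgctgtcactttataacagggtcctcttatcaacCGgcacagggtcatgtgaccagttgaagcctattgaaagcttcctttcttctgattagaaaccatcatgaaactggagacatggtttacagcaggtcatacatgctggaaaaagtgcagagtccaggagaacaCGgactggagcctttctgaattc
These promoters differ in composition. The printed bases hold 29 CpG sites for Klf2 and 2 for Nr5a2, and both genes were lower in TET KO.

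Klf2, a Krüppel-like factor of the naive network, had 12.2, 8.54 and 11.2 RPKM in TET KO libraries, against 48.7, 47.7 and 50.3 RPKM in TET WT libraries. All TET KO libraries lay well below all TET WT libraries, with a log2 change of -2.16 ± 0.11 (limma adjusted p = 2.44e-07). Prdm14, a PR-domain repressor of de novo methylation and FGF signalling genes in naive cells, had 0.402, 0.691 and 0.700 RPKM in TET KO, against 4.25, 3.66 and 3.98 RPKM in TET WT. Its groups lay far apart at a log2 change of -2.03 ± 0.12 (limma adjusted p = 8.39e-07). Nr5a2, an orphan nuclear receptor that can activate Pou5f1, had 2.61, 1.97 and 2.91 RPKM in TET KO, against 10.5, 10.1 and 10.4 RPKM in TET WT, again without overlap (log2 change -1.87 ± 0.11, limma adjusted p = 6.75e-07).

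Nanog (chr6:122707489-122714633), a homeobox factor at the core of naive pluripotency, had 69.1, 85.7 and 90.0 RPKM in TET KO libraries, against 223, 242 and 240 RPKM in TET WT libraries. Every TET KO library was under every TET WT library (log2 change -1.53 ± 0.10, limma adjusted p = 1.17e-06). Tbx3, a T-box factor, had 1.78, 1.41 and 1.42 RPKM in TET KO, against 5.62, 6.11 and 5.66 RPKM in TET WT, and its log2 change was -1.63 ± 0.09 (limma adjusted p = 4.48e-07). Klf5 had 14.3, 12.6 and 13.4 RPKM in TET KO and 27.5, 27.9 and 27.9 RPKM in TET WT. It was not called without TET KO replicate 2 (-0.98), after median centring (-0.91) or after quantile normalization (-0.92). Its log2 change of -1.03 ± 0.08 lay close to the size set for a call, and 3 further naive factors lay just short of it. Esrrb had 19.3, 17.6 and 19.4 RPKM in TET KO, against 37.9, 36.0 and 36.1 RPKM in TET WT (log2 change -0.95). Tfcp2l1 and Klf4 had log2 changes of -0.93 and -0.91. For all 3 the libraries of the groups did not overlap.

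The naive genes called higher were Dppa5a and Dppa3. Dppa5a (chr9:78367052-78368177), an RNA-binding protein of pluripotent cells, was among the most abundant transcripts, with 6950, 7410 and 7530 RPKM in TET KO libraries and 2790, 2850 and 3040 RPKM in TET WT libraries. The groups were well separated, with a log2 change of 1.33 ± 0.11 (limma adjusted p = 4.37e-06). Dppa3, a maternal factor that protects methylation marks in the zygote, was low in both lines, at 1.58, 0.851 and 1.46 RPKM in TET KO and 0.311, 0.501 and 0.312 RPKM in TET WT (log2 change 1.02 ± 0.20, limma adjusted p = 0.00188). Dppa3 was not called without TET KO replicate 1 (0.90), TET KO replicate 3 (0.94), TET WT replicate 1 (0.97) or TET WT replicate 3 (0.97), nor with a pseudocount of 1 RPKM (0.73), and Dppa5a was not called after quantile normalization (0.36). The signal transducer Stat3 and its target Socs3 had means of 2.14 and 2.09 RPKM in TET KO and 1.90 and 1.53 RPKM in TET WT, and neither was called.

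General pluripotency factors gave no lower call. Of 14 such genes, 1 was called, and it was higher: Tdgf1 (chr9:110939603-110946158), the Nodal co-receptor Cripto. It had 902, 1030 and 1020 RPKM in TET KO libraries, against 262, 260 and 277 RPKM in TET WT libraries, with no overlap (log2 change 1.88 ± 0.06, limma adjusted p = 7.82e-09). Pou5f1 had 948, 1030 and 982 RPKM in TET KO, against 704, 689 and 688 RPKM in TET WT, and Sox2 had 82.8, 78.4 and 82.8 RPKM in TET KO, against 141, 139 and 138 RPKM in TET WT. The groups were separated for both, in opposite directions, with log2 changes of 0.51 and -0.77, and neither was called.

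Among 20 genes of the formative and primed state, 2 were called higher (Car4 and Lef1) and 1 lower (Fgf15), and the median log2 change of the list was 0.27 below that of all genes. Otx2, which opens formative enhancers, had 16.9, 16.5 and 17.5 RPKM in TET KO libraries and 13.7, 11.4 and 11.8 RPKM in TET WT libraries. TET KO lay above TET WT in every library, by a log2 change of 0.45 ± 0.07, which is under the size for a call. Pou3f1 had 4.14, 4.38 and 3.84 RPKM in TET KO and 3.84, 3.37 and 2.89 RPKM in TET WT, and the nearest libraries of the groups had the same level. Fgf5 overlapped between groups, with 0.562, 0.438 and 0.163 RPKM in TET KO and 0.554, 0.464 and 0.705 RPKM in TET WT.

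Lef1, a transcription factor of the Wnt pathway, had 3.32, 2.73 and 3.22 RPKM in TET KO libraries, against 0.378, 0.508 and 0.422 RPKM in TET WT libraries. The groups were far apart (log2 change 1.94 ± 0.14, limma adjusted p = 2.73e-06). Car4, a membrane carbonic anhydrase, had 10.8, 10.4 and 9.55 RPKM in TET KO, against 1.93, 2.14 and 1.79 RPKM in TET WT (log2 change 2.13 ± 0.14, limma adjusted p = 1.69e-06). Both genes were above the parental line on day 1, while Fgf15, a secreted fibroblast growth factor, was below it, at 0.337, 0.248 and 0.347 RPKM in TET KO and 1.84, 1.31 and 2.15 RPKM in TET WT (log2 change -1.47 ± 0.18, limma adjusted p = 8.02e-05). Foxd3, a forkhead repressor, had 6.78, 4.54 and 5.23 RPKM in TET KO and 11.9, 11.1 and 10.6 RPKM in TET WT, just short of a call at a log2 change of -0.97.

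**Figure D2:**
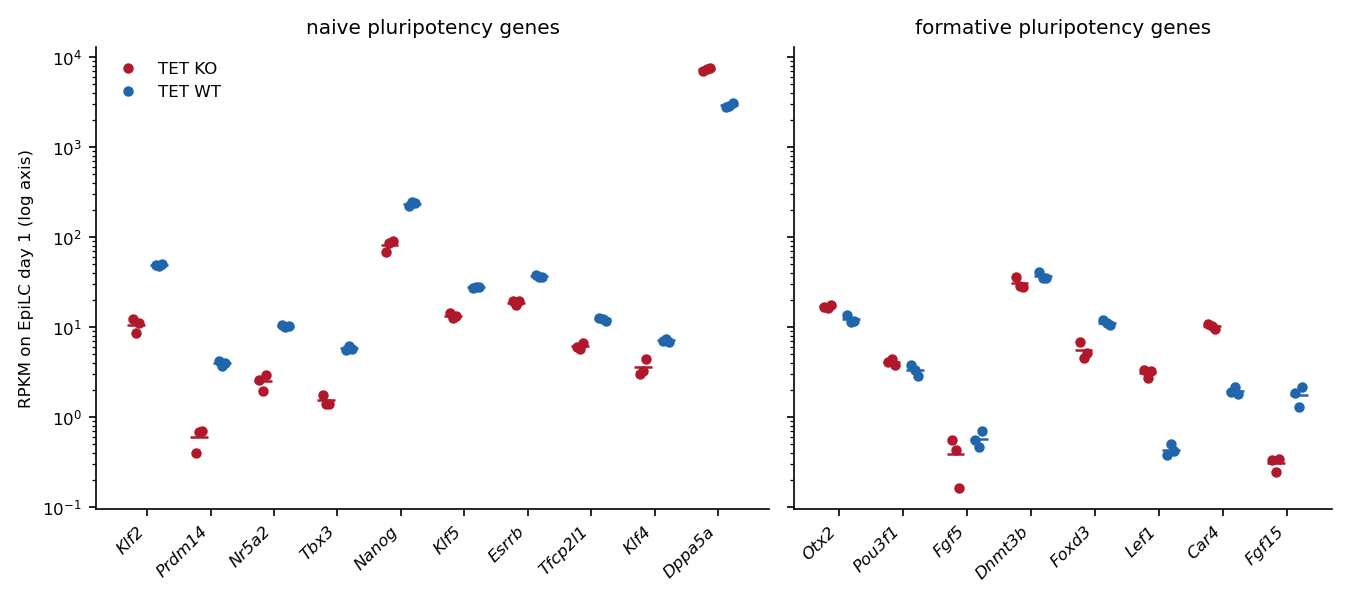
RPKM on a log axis for 10 naive genes (left panel) and 8 formative genes (right panel) at EpiLC D1, with 1 point per library, a short line at the mean of the 3 libraries, TET KO in red left of TET WT in blue. TET KO points lie below TET WT points for the naive genes drawn other than Dppa5a, while the points overlap for Fgf5 and lie higher in TET KO for Otx2, Lef1 and Car4. Of all 22 naive genes tested, 6 had a positive log2 change and 16 a negative one. Of these 6 only Dppa5a is drawn, so the panel shows more of the lower genes than the list holds. Left out are Dppa3, which was also called higher, and Fgf4, Sox15, Stat3 and Socs3.

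Whether these differences were present before the conversion was tested as the knockout effect at EpiLC D1 minus the knockout effect at ESC D0, in which no library is shared. Over all genes 619 (4.05%) were called in this difference, with 217 (1.42%) higher and 402 (2.63%) lower. Higher calls were 35.1% of the total, and 71.1% (404 higher, 164 lower) after median centring and 60.8% (313 higher, 202 lower) after quantile normalization, so the direction of the total rests on the scaling. At ESC D0 itself 1035 genes (6.78%) were called, 704 (4.61%) higher and 331 (2.17%) lower in TET KO.

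The naive list had 9 of 22 members lower in that difference and none higher: Klf2, Prdm14, Nr5a2, Tbx3, Nanog, Klf5, Esrrb, Fbxo15 and Klf4. Over the settings run, 7 to 9 were lower and at most 1 was higher, so here the direction did not turn with the scaling. At ESC D0 no naive gene was called lower and 1 (Dppa5a) was higher. Nanog had a mean of 502 RPKM in TET KO and 467 RPKM in TET WT at ESC D0, Klf2 had 118 and 140 RPKM in TET KO and TET WT, and Klf4 had 223 and 153 RPKM in TET KO and TET WT. From day 0 to day 1 the level of a naive gene fell to a median of 13.8% of its day 0 level in TET KO and 37.2% in TET WT (median over 22 genes of the ratio of group means), and the share kept was smaller in TET KO for 19 of the 22. Klf4 kept 1.61% in TET KO and 4.64% in TET WT. Zfp42 kept 99.7% in TET KO and 122% in TET WT, and so had not yet fallen in either line.

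Formative genes gave a mixed picture in the same difference, with 5 higher and 2 lower. Otx2 was higher in it (2.03 on the log2 scale), and its mean at ESC D0 was 0.291 RPKM in TET KO and 1.89 RPKM in TET WT, below the parental line. Etv4 and Dusp6, induced by FGF and ERK signalling, were also higher, by 1.51 and 1.46. Etv4 had a mean of 1.71 RPKM in TET KO and 8.81 RPKM in TET WT at ESC D0, against 41.4 RPKM in TET KO and 62.0 RPKM in TET WT at EpiLC D1. Car4 was listed at under 0.05 RPKM in both lines at ESC D0.

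The same comparison was made with the second day. The knockout effect at EpiLC D1 minus that at EpiLC D2 passed for 869 genes (5.69%), of which 212 (1.39%) were higher and 657 (4.3%) lower. The share of higher calls was 24.4%, and 59.3% (447 higher, 307 lower) after median centring and 45% (299 higher, 366 lower) after quantile normalization. At EpiLC D2, 1206 genes (7.9%) passed in TET KO itself, with 733 (4.8%) higher and 473 (3.1%) lower. The number called in the difference was 1197 without TET WT EpiLC D2 replicate 3 and 704 without TET KO EpiLC D2 replicate 2. Among naive genes, 8 were lower and 2 higher on that day, and in the difference 3 were lower and 2 higher. Klf2 had a mean of 30.5 RPKM in TET KO and 44.3 RPKM in TET WT at EpiLC D2, so in TET KO it was higher on day 2 than on day 1. Tbx3 reached 1.47 RPKM in both lines on day 2.

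Of 20 formative genes, 4 were lower in TET KO on day 2 (Otx2, Fgf5, Foxd3 and Fgf15) and none higher. Otx2 had a mean of 5.67 RPKM in TET KO and 14.8 RPKM in TET WT at EpiLC D2, and Fgf5 had 0.924 RPKM in TET KO and 4.76 RPKM in TET WT. Lef1 had 2.66 RPKM in TET KO and 5.40 RPKM in TET WT, the reverse order of day 1, and its difference between days was called (2.82 on the log2 scale). The formative list had 4 members higher and none lower in the effect at EpiLC D1 minus that at EpiLC D2. These D2 values rest on libraries that Tet1 did not separate, as given above, although other genes that differed between the lines on every day did separate them: Rpl29 had a mean of 93.2 RPKM in TET KO and 6.22 RPKM in TET WT at EpiLC D2.

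**Figure D3:**
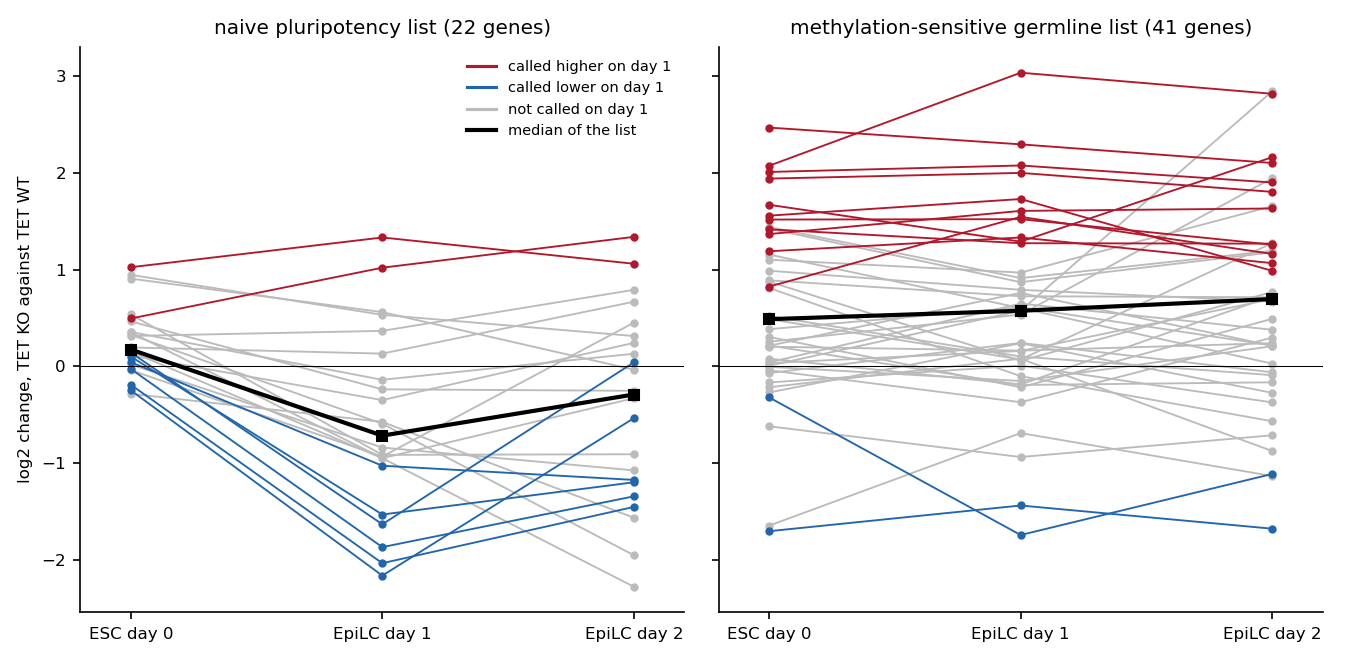
Log2 change of TET KO against TET WT at ESC day 0, EpiLC day 1 and EpiLC day 2 for the 22 naive genes (left panel) and the 41 germline genes (right panel), with 1 line per gene coloured by its call on day 1 and the list median in black. The naive median lies above 0 at day 0 and below it on day 1, whereas the germline median lies above 0 on all 3 days.

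Among germline genes whose promoters are methylated in somatic cells, more members were called higher than lower. Of 41 tested, 11 were higher (Mael, Mov10l1, Ddx4, Sycp3, Meioc, Slc25a31, Tuba3b, Tex19.1, Tdrkh, Taf7l and Tdrd1) and 2 were lower (Sycp1 and Hormad1). The median log2 change was 0.60 above that of all genes, and 9 to 15 members were higher over the alternative settings. The promoters of the pair with the largest changes hold the hexamer CACGTG, an E-box known as a site of the E2F6, MGA and MAX complex at germline genes.
Mael (chr1:166238745-166238994, - strand): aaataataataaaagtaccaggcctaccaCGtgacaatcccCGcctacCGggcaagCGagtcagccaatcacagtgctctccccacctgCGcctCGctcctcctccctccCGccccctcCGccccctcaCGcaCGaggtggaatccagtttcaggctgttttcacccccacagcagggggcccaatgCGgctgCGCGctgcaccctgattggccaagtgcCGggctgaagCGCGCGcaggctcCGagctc
Mov10l1 (chr15:88982744-88982993, + strand): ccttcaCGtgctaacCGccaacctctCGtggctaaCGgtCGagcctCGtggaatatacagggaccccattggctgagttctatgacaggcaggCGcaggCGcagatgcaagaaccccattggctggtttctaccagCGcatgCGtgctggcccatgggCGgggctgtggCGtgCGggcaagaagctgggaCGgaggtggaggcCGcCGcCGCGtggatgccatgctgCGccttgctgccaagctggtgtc
Each is the 250 bases before the start from RefSeq GRCm38.p6, 5′ to 3′, with CG in capitals, and they hold 18 and 19 CpG sites. CACGTG, which reads the same on both strands, was in the 300-base window (250 before and 50 after the start) of 14 of the 37 list members with a window (37.8%), against 10.2% of tested genes with a window (73.2% of those tested have one) and 7.15% of all 32851 windows. It was in 7 of the 11 members called higher, in both called lower and in 5 of the 24 not called that have a window. The list was chosen with earlier results of these data known and many tested genes lack a window, so these counts do not compare the motif between calls. Whether the motif bears on the calls was not tested.

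Mael, which acts in piRNA silencing of transposons in germ cells, had 35.3, 36.6 and 37.1 RPKM in TET KO libraries, against 3.62, 4.18 and 4.18 RPKM in TET WT libraries. The groups lay far apart (log2 change 3.04 ± 0.15, limma adjusted p = 2.02e-07). Mov10l1, an RNA helicase of piRNA biogenesis, had 6.19, 5.93 and 6.46 RPKM in TET KO, against 1.13, 0.940 and 0.577 RPKM in TET WT (log2 change 2.30 ± 0.18, limma adjusted p = 4.78e-06). Ddx4, the germ cell helicase Vasa, had 29.6, 28.2 and 29.8 RPKM in TET KO, against 7.45, 5.57 and 6.71 RPKM in TET WT, and all TET KO libraries were above all TET WT libraries (log2 change 2.08 ± 0.10, limma adjusted p = 1.85e-07).

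Sycp3, of the synaptonemal complex that joins chromosomes in meiosis, had 15.8, 20 and 15.0 RPKM in TET KO libraries, against 3.29, 4.03 and 4.18 RPKM in TET WT libraries (log2 change 2.00 ± 0.21, limma adjusted p = 2.4e-05). Tex19.1, which restrains retrotransposons, was the most abundant of the higher members, with 176, 181 and 183 RPKM in TET KO and 64.9, 62.0 and 59.9 RPKM in TET WT. No library of one line reached the other for these genes. Sycp1, the partner of Sycp3 in the same complex, went the other way, with 3.67, 2.96 and 3.21 RPKM in TET KO and 14.2, 10.4 and 12.1 RPKM in TET WT (log2 change -1.74 ± 0.11, limma adjusted p = 1.2e-06). Hormad1, of the meiotic chromosome axis, was also lower, with 12.7, 12.8 and 10.6 RPKM in TET KO and 34.2, 35.0 and 31.1 RPKM in TET WT. Dazl, often used as a marker of promoter demethylation, was at 7.61, 7.95 and 7.73 RPKM in TET KO and 9.53, 8.72 and 8.48 RPKM in TET WT, and was not called.

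Most of the 11 higher germline genes were also called on the neighbouring days. Of these 11, 10 were called higher at ESC D0 and 10 at EpiLC D2, with log2 changes of 0.83 to 2.47 and 0.99 to 2.82. None was called in either difference between days, where their values ran from -0.38 to 0.96 (day 1 minus day 0) and from -0.87 to 0.74 (day 1 minus day 2). In DNMT KO against DNMT WT at EpiLC D1, 1 of the 11 was called higher (Tuba3b), and 7 of the 11 were higher in the TET effect minus the DNMT effect. The TET KO and TET WT values of day 1 chose these 11 and enter each of these differences, so the counts are a description. The list held 2 further members called higher in DNMT KO: Asz1, of piRNA biogenesis, had a log2 change of -0.15 in TET KO and 2.52 in DNMT KO, and Dazl had a log2 change of -0.19 in TET KO and 1.10 in DNMT KO.

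A few members of each signalling list were called, beside 3.35% higher and 3.28% lower of all genes. Nodal signalling, which supports the primed state, had 3 of 19 members lower (Lefty2, Lefty1 and Gdf3) and Tdgf1 higher. Lefty2 (chr1:180893108-180899103), a secreted Nodal inhibitor that is itself a Nodal target, had 6.89, 7.11 and 9.10 RPKM in TET KO libraries, against 33.0, 41.7 and 43.0 RPKM in TET WT libraries. The groups were far apart (log2 change -2.28 ± 0.12, limma adjusted p = 3.02e-07). Lefty1, its neighbour and close relative, had 4.64, 4.03 and 2.46 RPKM in TET KO and 16.0, 17.6 and 21.1 RPKM in TET WT (log2 change -2.18 ± 0.19, limma adjusted p = 9.72e-06). Nodal itself was at 36.8, 35.5 and 35.2 RPKM in TET KO and 41.1, 39.4 and 42.8 RPKM in TET WT and was not called (log2 change -0.19). Gdf3, a ligand of the same receptors, had 26.6, 25.9 and 22.2 RPKM in TET KO and 69.1, 64.4 and 58.8 RPKM in TET WT (log2 change -1.35 ± 0.11). Lefty1 and Lefty2 were also called lower at ESC D0 and EpiLC D2.

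In the BMP list, 2 of 18 were lower and 1 higher, beside 3.28% lower and 3.35% higher of all genes. The median of the list was 0.0085 above that of all genes. Bmp4, a ligand gene on chromosome 14, had 1.42, 1.2 and 1.92 RPKM in TET KO libraries, against 15.3, 15.7 and 13.3 RPKM in TET WT libraries, with no overlap (log2 change -2.94 ± 0.16, limma adjusted p = 5.46e-07). Id3, a target of BMP signalling, had 2.67, 3.96 and 3.01 RPKM in TET KO and 10.5, 12.5 and 10 RPKM in TET WT (log2 change -1.64 ± 0.13). Id2, of the same family of inhibitors, was higher in TET KO, with 1.81, 2.28 and 1.71 RPKM against 1.14, 0.110 and 0.723 RPKM in TET WT, and it was not called with a pseudocount of 1 RPKM, with the replicate block (limma adjusted p = 0.0732) or without TET WT replicate 2 (log2 change 0.77).

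In the Wnt list, 3 of 24 were lower (Notum, Cdx1 and Tcf7l1) and Lef1 was higher, beside 3.28% lower and 3.35% higher of all genes. The median of the list was 0.09 below that of all genes. Notum (chr11:120653788-120661175), a secreted enzyme that inactivates Wnt ligands and is a Wnt target, had 3.47, 3.47 and 3.49 RPKM in TET KO libraries, against 26.7, 29.5 and 28.2 RPKM in TET WT libraries. Its groups were tight and far apart (log2 change -2.85 ± 0.06, limma adjusted p = 3.63e-10). Axin2, another Wnt target, had 1.77, 1.90 and 2.13 RPKM in TET KO and 3.96, 3.34 and 3.66 RPKM in TET WT and was not called (log2 change -0.77). Tcf7l1, a repressor of naive genes in the same pathway, had 9.22, 6.58 and 7.92 RPKM in TET KO and 18.6, 17.6 and 16.1 RPKM in TET WT (log2 change -1.10 ± 0.13). It was not called without TET KO replicate 2 (-0.98), after median centring (-0.99) or after quantile normalization (-0.97). Among 20 FGF receptor and ERK feedback genes, Etv1 and Dusp14 were lower and Ier3 was higher, with a list median 0.18 below that of all genes. Dusp14 was not called without TET KO replicate 2 (-0.96), after median centring (-0.98) or after quantile normalization (-0.94). Ier3 was not called without TET WT replicate 1, TET WT replicate 2 or TET KO replicate 3 (limma adjusted p = 0.0858, 0.0821 and 0.106, at log2 changes of 1.0, 1.03 and 0.86). Nor was it called with no filter on low values (limma adjusted p = 0.107). Spry4 and Dusp6, feedback inhibitors of ERK, had log2 changes of -0.76 and 0.46 and were not called.

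Some neuroectoderm genes were called lower, in a list cut by the filter on low values. Of 19 neuroectoderm genes listed, 9 passed the filter on low values, and 5 of these were lower (Olig2, Olig1, Sox1, Sox21 and Tubb3). A gene could pass that filter through TET WT libraries alone, so the count of 5 of 9 cannot be ranked against other lists. Over the alternative settings 2 to 7 members were lower. The median of the list minus that of all genes ran from -2.07 to -0.0064. No read was recovered for Olig2 (chr16:91225457-91228677), a factor of motor neuron and oligodendrocyte progenitors, in any TET KO library, whereas it was listed at 10.8, 10.6 and 11 RPKM in TET WT libraries. Olig1, its neighbour on chromosome 16, likewise had 4.31, 3.39 and 3.99 RPKM in TET WT and no read recovered in 2 of 3 TET KO libraries, with all 3 listed at or under 0.039 RPKM. Sox1, a marker of neural progenitors, had 0.834, 0.489 and 0.676 RPKM in TET KO, against 5.20, 5.40 and 5.42 RPKM in TET WT (log2 change -2.33 ± 0.12, limma adjusted p = 3.85e-07). Sox1 and Tubb3 lie on chromosome 8 and Sox21 on chromosome 14, and without these chromosomes 2 of 6 remained lower. Pax6, the defining marker of neuroectoderm, was at or under 0.363 RPKM in all 6 libraries, and Olig1 and Olig2 were already called lower at ESC D0.

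The trophoblast list had 4 of 18 members higher (Krt18, Esx1, Krt8 and Krt19) and none lower. Krt18, a keratin of simple epithelia, had 14.2, 12.0 and 13.7 RPKM in TET KO libraries, against 2.44, 1.31 and 2.78 RPKM in TET WT libraries, without overlap (log2 change 2.41 ± 0.19, limma adjusted p = 4.08e-06). Krt8, its partner in keratin filaments, had 7.66, 6.76 and 7.54 RPKM in TET KO and 2.78, 2.97 and 3.51 RPKM in TET WT. Krt19 was not called without TET WT replicate 3 (0.98) or TET KO replicate 3 (0.88). The trophoblast transcription factors Cdx2 and Gata3 were not called: Cdx2 had 0.788, 0.634 and 0.397 RPKM in TET KO and 0.613, 0.119 and 0.041 RPKM in TET WT, and Gata3 was at or under 0.809 RPKM in all 6 libraries. The 18 primitive streak genes and the 22 haematoendothelial genes held no call in either direction, and of 22 endoderm genes 2 low ones were higher, Amn and Rbp4. Amn was not called without TET KO replicate 1 (0.95) or TET WT replicate 3 (0.99), nor Rbp4 without TET KO replicate 3 (0.79) or TET WT replicate 1 (0.83).

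Of 22 genes of cell junctions and shape, 3 were higher (Cldn7, Ocln and Esrp1, of tight junctions and epithelial splicing), 2 were lower (Vim and Cdh3) and 17 were not called. Esrp1 was not called without TET KO replicate 2 (0.99). Vim, the intermediate filament vimentin, had 8.03, 6.56 and 6.75 RPKM in TET KO libraries, against 28.4, 29.7 and 29.1 RPKM in TET WT libraries (log2 change -1.96 ± 0.07, limma adjusted p = 3.45e-08). Cldn7 had 4.67, 5.07 and 4.78 RPKM in TET KO, against 0.901, 1.19 and 0.619 RPKM in TET WT (log2 change 1.95 ± 0.23, limma adjusted p = 5.63e-05). The libraries of the lines did not overlap for either. Cdh1, which encodes E-cadherin, had a log2 change of -0.39 and was not called.

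Imprinted genes, expressed from 1 parental allele under control of DNA methylation, moved in both directions: 4 of 42 were higher (H19, Peg3, Phlda2 and Cdkn1c) and 4 lower (Grb10, Ddc, Mest and Peg12). H19, a noncoding RNA silenced on the methylated paternal allele, had 5.26, 5.83 and 4.68 RPKM in TET KO libraries, against 0.751, 0.545 and 0.264 RPKM in TET WT libraries (log2 change 2.52 ± 0.18, limma adjusted p = 2.26e-06). Grb10, an adaptor that restrains growth signalling, had 0.701, 0.371 and 0.476 RPKM in TET KO, against 4.61, 5.07 and 5.26 RPKM in TET WT (log2 change -2.44 ± 0.12, limma adjusted p = 2.01e-07). Both groups of values were separate in either case. Ddc, the neighbour of Grb10 on chromosome 11, fell with it, at 3.78, 4.05 and 3.51 RPKM in TET KO and 15.1, 15.4 and 13.8 RPKM in TET WT. Cdkn1c was not called without TET WT replicate 3 (0.93), nor Peg12 without TET KO replicate 3 (-0.95), TET WT replicate 1 (-0.99) or TET WT replicate 3 (-0.88). Peg12 was also not called after median centring (-0.90), after quantile normalization (-0.99) or with a pseudocount of 1 RPKM (-0.77).

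MHC class I and antigen presentation genes had 4 of 11 members higher (H2-K1, H2-T22, B2m and Psmb9) and none lower. H2-K1 had 19.5, 18.9 and 20.7 RPKM in TET KO libraries, against 4.25, 4.83 and 5.69 RPKM in TET WT libraries (log2 change 1.90 ± 0.17, limma adjusted p = 9.43e-06). B2m, the shared light chain, had 10.4, 8.53 and 7.21 RPKM in TET KO and 3.22, 2.49 and 2.81 RPKM in TET WT. Psmb9, a subunit of the immunoproteasome, was not called without TET KO replicate 3 (0.97). The H2 genes are near-identical copies on chromosome 17 that can share reads, so their split is uncertain. Of 21 interferon response genes none was called in either direction.

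Of the cell cycle list, Ccnd2 and Ccnd3, D-type cyclins of the G1 phase, were lower, and the inhibitor Cdkn1c was higher, of 18. Of all genes tested, 3.28% were lower and 3.35% higher, and the counts of these short lists were not tested against those shares. Ccnd3 had 12.0, 11 and 11.2 RPKM in TET KO and 23.9, 25.9 and 21.9 RPKM in TET WT. It was not called without TET WT replicate 2 (-0.97), after median centring (-0.92) or after quantile normalization (-0.91). Polycomb genes had 2 of 30 lower, Epop and Bmi1. Bmi1 was not called without TET WT replicate 1 (-0.99), after median centring (-0.95), after quantile normalization (-0.935) or with a pseudocount of 1 RPKM (-0.96). Of 8 genes of the Rhox cluster on chromosome X, whose copies can share reads, Rhox10 and Rhox13 were higher. The 19 p53 targets and 22 cholesterol synthesis genes held no call. Of the 13 mitochondrially encoded genes, mt-Nd3 was higher and mt-Cytb lower (not called without TET KO replicate 3, at -0.98, or TET WT replicate 1, at -1.0), and 12 of 13 had a negative log2 change, beside the smaller mitochondrial share of TET KO libraries given above.

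**Figure D4:**
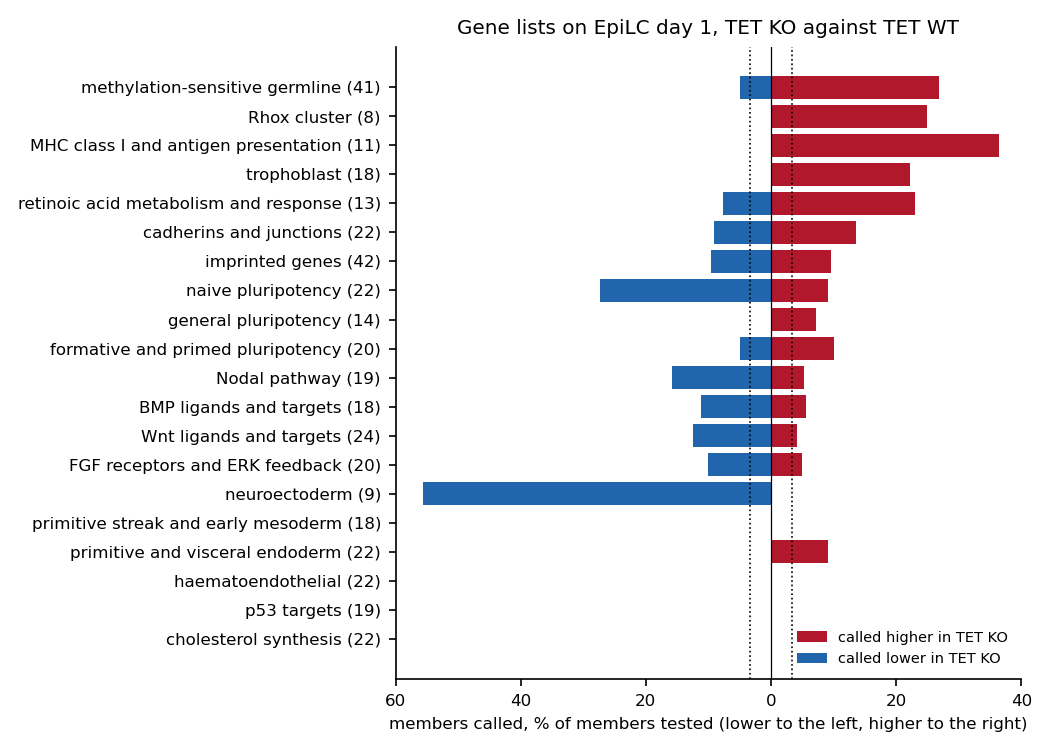
Share of the tested members of 20 gene lists called at EpiLC D1, in percent, with genes called higher in TET KO to the right in red and lower to the left in blue, and the number tested in brackets. Dotted lines mark the shares of all genes, 3.35% higher and 3.28% lower, with the MHC, germline and Rhox lists reaching farthest to the right of the 20 lists drawn (the housekeeping list, with 6 of 18 higher, and the low-oxygen list, with 9 of 32 higher, are not drawn) and the neuroectoderm and naive lists farthest to the left. The neuroectoderm bar covers the 9 of 19 listed genes that passed the filter on low values. A gene could pass it through TET WT alone, so this bar cannot be ranked.

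The largest changes over all genes were ranked without regard to lists. Among named genes, the largest rises were of Rpl29, Plac8, Mael, Egln3, Rgcc, Arhgdib, Crisp1, Bnip3, S100a16 and H19. Rpl29 (chr9:106429454-106431568), a protein of the large ribosomal subunit, had 109, 111 and 115 RPKM in TET KO libraries, against 7.14, 7.54 and 5.77 RPKM in TET WT libraries (log2 change 3.95 ± 0.11, limma adjusted p = 4.75e-09). Ribosomal protein genes have many processed copies that can share reads, so this level is uncertain, and DNMT KO and DNMT WT libraries were close to TET WT, with means of 9.47 and 11.6 RPKM. Plac8, a small cysteine-rich protein first found in placenta, had 7.83, 8.58 and 6.20 RPKM in TET KO and 0.174, 0.0505 and 0.175 RPKM in TET WT (log2 change 3.66 ± 0.17). Arhgdib had 6.59, 7.86 and 7.08 RPKM in TET KO and 0.703, 0.576 and 0.598 RPKM in TET WT (log2 change 2.77 ± 0.12). All of the genes named as largest rises, other than Egln3 and Bnip3, were also called higher at both ESC D0 and EpiLC D2.

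The largest falls among named genes were of Nr1h5, Apoc2, Olig2, Hist1h2ak, Aass, Ipp, Hist1h2ap, Msc, Hist1h2ao and Zfp951. For Nr1h5 (chr3:102939658-102964133), a nuclear receptor related to the bile acid receptor, no read was recovered in any TET KO library, and it had 17.4, 16.9 and 20.9 RPKM in TET WT libraries. DNMT KO and DNMT WT libraries were as low as TET KO, at 0.0277 and 0.0284 RPKM, so TET WT stood alone among the 4 lines for this gene. The same held for Olig2, at 0.031 and 0.0319 RPKM in DNMT KO and DNMT WT. Ipp, a kelch-repeat protein, had 7.23, 10.1 and 10.9 RPKM in TET KO and 99.0, 96.1 and 99.4 RPKM in TET WT, with 3.43 and 3.31 RPKM in DNMT KO and DNMT WT. Aass, an enzyme of lysine breakdown, had 0.27, 0.530 and 0.192 RPKM in TET KO and 7.86, 8.50 and 8.10 RPKM in TET WT, and here DNMT KO and DNMT WT were on the side of TET WT, at 12.9 and 15.6 RPKM.

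Apoc2, the activator of lipoprotein lipase, had 0.346, 1.45 and 0.703 RPKM in TET KO libraries, against 27.3, 29.6 and 26.0 RPKM in TET WT libraries (log2 change -4.48 ± 0.36, limma adjusted p = 4.61e-06). It shares its place with the predicted gene Gm44805, which had 0.490, 1.54 and 1.07 RPKM in TET KO and 25.5, 27.9 and 24.6 RPKM in TET WT, so reads of the pair may be split. Gm44805 had means of 0.662 and 0.547 RPKM in DNMT KO and DNMT WT. The histone genes Hist1h2ak, Hist1h2ap and Hist1h2ao are near-identical copies and their levels are uncertain. Hist1h2ak had 1.67, 0.193 and 8.10 RPKM in TET KO, which is the widest spread of these genes, and 36.0, 39.6 and 40.8 RPKM in TET WT. The largest fall of all genes, outside the rule for names and singled out after its values were seen, was of the predicted gene Gm10260 (chr13:97760072-97760632), with 2.51, 3.31 and 3.49 RPKM in TET KO and 435, 442 and 436 RPKM in TET WT (log2 change -6.94 ± 0.18, limma adjusted p = 3.81e-09). Its means were 0.447 and 0.756 RPKM in DNMT KO and DNMT WT, so TET WT stood alone among the 4 lines here too.

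A share of the day 1 calls was present on the neighbouring days. Of the 511 genes higher at EpiLC D1, 239 (46.8% of these, and 33.9% of the genes higher at ESC D0) were higher at ESC D0 and 250 (48.9%, and 34.1% of the genes higher at EpiLC D2) at EpiLC D2. Of the 500 lower genes, 164 (32.8%, and 49.5% of those lower at ESC D0) were lower at ESC D0 and 186 (37.2%, and 39.3% of those lower at EpiLC D2) at EpiLC D2. The genes lower on day 1 had a median log2 change of -1.29 on that day, -0.78 at ESC D0 and -0.77 at EpiLC D2. For the genes higher on day 1 the medians were 1.28, 0.96 and 0.99. In the test of the difference from ESC D0, 95 of the 511 were higher and 110 of the 500 were lower. The day 1 values chose these genes, so their smaller medians on other days and their counts in this difference are a description.

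Loss of the methyltransferases had a smaller effect on the same day. In DNMT KO against DNMT WT at EpiLC D1, 145 genes (0.95%) were called, 73 (0.478%) higher and 72 (0.472%) lower. Of the 511 genes higher in TET KO, 5 were higher in DNMT KO, and of the 500 lower genes 6 were lower and 9 higher there. The TET effect minus the DNMT effect was called for 1359 genes (8.9%), 638 (4.18%) higher and 721 (4.72%) lower, and this includes 373 of the 511 and 384 of the 500. That difference holds the same TET libraries whose values chose the 511 and the 500. A large overlap was therefore built in and is only a description. Higher calls were 46.9% of the total, and 69.3% (1002 higher, 444 lower) after median centring. In DNMT KO and DNMT WT, Nanog had means of 75.6 and 70.4 RPKM and Klf2 of 42.3 and 42.1 RPKM, and neither was called. The log2 change of Nanog was -1.53 in TET KO, against 0.10 in DNMT KO. The DNMT lines had 3 and 2 libraries, and their parental line is not that of TET KO, so the difference in the number of calls also holds differences between the parental lines.

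The changes were not spread evenly over chromosomes. On chromosome 8, 91 of 821 genes (11.1%) were lower and 8 higher, and the median log2 change was 0.41 below that of all genes. On chromosome 14, 62 of 587 genes (10.6%) were lower and 7 higher, and the median was 0.25 below. The shift was present on the other days too, with medians of -0.34 and -0.32 (minus that of all genes) on chromosomes 8 and 14 at ESC D0 and -0.36 and -0.25 at EpiLC D2. In DNMT KO against DNMT WT at EpiLC D1 it was -0.01 and 0.01. Without both chromosomes 843 genes were called. Chromosome 17, which holds the H2 genes, had 50 of 749 genes (6.68%) higher and 9 lower. The number of copies of each chromosome in the lines was not tested. Naive genes off both chromosomes had a median log2 change 0.58 below that of all genes off them.

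**Figure D5:**
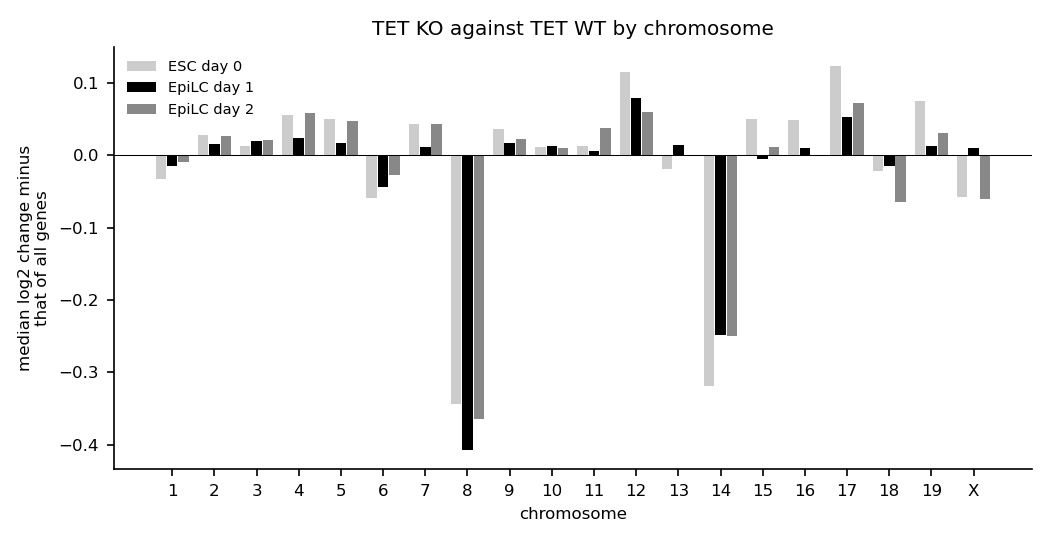
Median log2 change of TET KO against TET WT by chromosome, minus the median of all genes tested, at ESC day 0 (light grey), EpiLC day 1 (black) and EpiLC day 2 (dark grey). Of the chromosomes drawn, 8 and 14 lie lowest on all 3 days, at -0.41 and -0.25 on EpiLC day 1.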

How the data were processed

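RNA-seq libraries were made strand-specifically with an oligo-dT step, per the labels' protocols. The authors deposited gene values as log2 RPKM for 79 libraries. The submitters' processing notes name Trim Galore 0.6.1, cutadapt 1.18, HISAT2 2.1.0 and the build GRCm38. How reads were counted, and on which annotation, is not given in the sources used here. Deposited log2 values were turned back into RPKM. Libraries were grouped by the labelled line and day. One DNMT WT EpiLC D1 column is numbered 3 while the labels number that group's libraries 1 and 2, so it was used as a replicate of its group without a number. Gene IDs listed more than once were reduced to the entry of highest mean, so that 39 entries were dropped and 35230 genes remained.

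The test took genes that reached 1 RPKM in 2 or more of the 79 libraries. limma 3.58.1 in R 4.3.3 (with trend and robust settings) was fitted to log2(RPKM + 0.5), and all log2 changes are on that scale, which understates the change of low genes. A call needed a Benjamini-Hochberg adjusted p under 0.05 over all 15267 genes tested together with a log2 change of 1 or more in either direction. The comparison at EpiLC D1 used the 11 libraries of the 4 lines on that day. Values lie on whole multiples of a unit that depends on gene length: at least 96.39% of values from 1 to 20 units were whole within 0.1, with gene lengths from merged exons. Of whole values, 85.0 to 86.15% were odd, so units were not read as independent fragments. A gene without a read is listed at 0.9 units. Chi-square per gene between replicates was 3.46 to 4.81 (TET KO) and 2.37 to 2.82 (TET WT) with 1 unit per fragment. With 2 units per fragment it was 1.73 to 2.40 (TET KO) and 1.18 to 1.41 (TET WT). Sampling noise alone would give about 1, so the excess depends on this choice and was slight for TET WT with 2 units. The number of units per fragment is not known. Each library was counted once.

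Named genes were the Tet and Dnmt genes, the 10 largest rises and falls among called genes with a mean of at least 5 RPKM and no clone name, the 5 largest differences in each direction between days and between knockouts, up to 4 called members of each list, and a set of known pluripotency and Nodal genes. Other named members were chosen after their values were seen. The members and gene lists were chosen with earlier results of these data known. Alternatives were other pseudocounts, filters and scalings, voom on recovered units, a replicate block, and leaving out libraries or chromosomes 8 and 14. The fit was tested on simulated data with 15263 genes: of 100 genes changed 4-fold 99% were called, and of 100 changed 2-fold 86% passed the adjusted p and 37% were called. The changed genes were drawn from those with a mean of at least 5 RPKM. The simulated spread was a fixed setting, not estimated from these libraries. These shares therefore do not cover lower genes. Promoter sequences are from RefSeq. Because 73.2% of tested genes had a window there, which is under 80%, a check of promoter composition by call was void.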

Additional observations from a re-analysis of the deposited data

Results flagged for a closer look

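The knockout effect on day 1 differed most from that on day 0, by the limma test of the difference, for these genes, given as the log2 difference of the effects. Foxd1, a forkhead factor, differed by 3.21, with a mean of 0.718 RPKM in TET KO and 12.4 RPKM in TET WT at ESC D0 and at or under 0.202 RPKM in all 6 libraries at EpiLC D1. Rpph1, the RNA of RNase P, differed by 2.45, and was higher in TET KO on day 1 at 8.82, 11.1 and 8.19 RPKM, against 3.18, 2.52 and 2.04 RPKM in TET WT. Phlda1 and Peg10 differed by 2.34 and 2.30. Both were lower at ESC D0, where Phlda1 had 0.605 RPKM in TET KO and 7.58 RPKM in TET WT, and Peg10 had 4.98 RPKM in TET KO and 22.2 RPKM in TET WT. Car4 differed by 2.12.

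In the other direction, Shisa2 differed by -2.23 and Fgf17, both on chromosome 14, by -2.15. Fgf17, a ligand of FGF receptors, had 0.611, 0.499 and 0.435 RPKM in TET KO libraries, against 6.62, 6.45 and 6.59 RPKM in TET WT libraries on day 1, and means of 4.49 RPKM in TET KO and 7.27 RPKM in TET WT at ESC D0. Pkp2 and Kdelr3 differed by -2.18 and -2.16, and were above the parental line at ESC D0, where Pkp2 had 12.2 RPKM in TET KO and 1.24 RPKM in TET WT and Kdelr3 had 16.8 RPKM in TET KO and 5.96 RPKM in TET WT. Mcam, a cell adhesion molecule, differed by -2.09, with 17.3 RPKM in TET KO and 14.6 RPKM in TET WT at ESC D0.

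Against day 2, by the same kind of test, the effect of day 1 differed by 2.95 for Vrtn, 2.82 for Lef1, 2.81 for Egln3, 2.21 for Rpph1 and 2.16 for Bnip3. Vrtn had a mean of 2.27 RPKM in TET KO and 12.2 RPKM in TET WT at EpiLC D2. The largest negative differences were all of mitochondrially encoded genes, at -2.52 for mt-Nd4, -2.47 for mt-Nd2, -2.44 for mt-Nd5, -2.43 for mt-Nd1 and -2.31 for mt-Cytb. At EpiLC D2 mt-Nd4 had 149 RPKM in TET KO and 42.9 RPKM in TET WT, the reverse of day 1. The day 2 libraries are those that Tet1 did not separate.

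Against the effect of the DNMT knockout on day 1, the effect differed by 4.32 for Plac8, 4.24 for Rpl29, 3.39 for Obox6, 3.30 for Arhgdib and 2.86 for Crisp1. Obox6, an oocyte-type homeobox gene, had 5.09, 5.27 and 5.77 RPKM in TET KO libraries and 1.17, 0.997 and 0.898 RPKM in TET WT libraries, and its means were 0.0603 RPKM in DNMT KO and 1.03 RPKM in DNMT WT. The negative differences were -5.16 for Nr1h5, -4.57 for Apoc2, -4.41 for Olig2, -4.11 for Efhc2 and -4.11 for Hist1h2ak. Efhc2, on chromosome X, had a mean of 22.1 RPKM in DNMT KO and 2.87 RPKM in DNMT WT.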

How the results depend on the processing

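For TET KO against TET WT at EpiLC D1, 1904 genes were called with a pseudocount of 0.1 RPKM (1014 higher, 890 lower), 647 with 1 RPKM (302 higher) and 2311 with voom (1232 higher, 1079 lower), and leaving out single libraries gave 999 to 1111 (484 to 539 higher, 479 to 572 lower). For day 1 minus day 0, a pseudocount of 0.1 RPKM gave 1207 (339 higher, 868 lower), 1 RPKM gave 315 (128 higher, 187 lower), voom gave 1225 (934 lower), median centring gave 404 higher and 164 lower, quantile normalization gave 202 lower, and leaving out libraries gave 577 to 660 (199 to 228 higher, 378 to 432 lower). For day 1 minus day 2, 0.1 RPKM gave 1514 (1203 lower), 1 RPKM gave 454 (129 higher, 325 lower), voom gave 1605 (1295 lower), median centring gave 447 higher and 307 lower, quantile normalization gave 366 lower, and leaving out libraries gave 704 to 1197 (194 to 246 higher, 498 to 951 lower). For the TET effect minus the DNMT effect, 0.1 RPKM gave 2072 (966 higher, 1106 lower), 1 RPKM gave 895 (465 lower), voom gave 2217 (987 higher, 1230 lower), median centring gave 1002 higher and 444 lower, and leaving out libraries gave 1308 to 1472 (612 to 676 higher, 693 to 804 lower). The cause of these shifts was not tested. With a pseudocount of 1 RPKM, the calls of Amn, Cdkn1c, Cdx1, Esrp1, Etv1, Krt19, P4ha2, Psmb9, Rbp4, Tdrd1, Tdrkh and Vegfa were also lost. After median centring mt-Cytb was not called. Of 129 named genes 100 were called, 75 of them under all 16 alternatives and 84 in every fit without 1 library, and none changed direction past the threshold. Same-numbered libraries did not deviate together (correlations 0.0361, -0.0304 and 0.0318), and a replicate block gave 995 calls (501 higher, 494 lower) at EpiLC D1, 614 for day 1 minus day 0, 806 for day 1 minus day 2 and 1513 for the TET minus the DNMT effect. Levels near 1 unit, 0.0408 to 0.0469 RPKM on a gene of 2 kb, cannot be ranked at this depth.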

Other observations

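Of 32 genes known to be induced by low oxygen, a list chosen after values had been seen, 9 were higher on day 1 (Egln3, Bnip3, Bhlhe40, Ankrd37, Ddit4, Adm, P4ha2, P4ha1 and Vegfa) 1 was lower (Kdm3a) and 22 were not called, beside 3.35% higher and 3.28% lower of all genes. At ESC D0 5 of them were higher and none lower, and the list's median stood 0.30 above that of all genes on day 1 and 0.35 above it at ESC D0. Vegfa was not called on day 1 without TET WT replicate 1 (0.95). Egln3, an oxygen-sensing prolyl hydroxylase, had 16.2, 16.8 and 19.3 RPKM in TET KO libraries, against 1.49, 1.48 and 3.38 RPKM in TET WT libraries (log2 change 2.85 ± 0.22, limma adjusted p = 4.08e-06). Bnip3, a mitophagy receptor, had 55.5, 68.8 and 79.5 RPKM in TET KO, against 9.91, 9.82 and 13.0 RPKM in TET WT. The libraries of the lines did not overlap for either gene. Kdm3a, a histone demethylase, went the other way, at 15.6, 14.6 and 13.6 RPKM in TET KO and 38.4, 40 and 37.6 RPKM in TET WT. At EpiLC D2 the levels of Egln3 were 27.2 RPKM in TET KO and 27.8 RPKM in TET WT, and 6 of the 32 genes were higher in the effect on day 1 minus that on day 2. The culture density and oxygen of the samples were not analysed here.

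Ribosomal protein genes, also chosen after values had been seen, had 4 of 77 members higher (Rpl29, Rplp0, Rps2 and Rps18) and none lower in TET KO, beside 3.35% higher and 3.28% lower of all genes. After quantile normalization 2 were higher and 1 lower, and Rps2 and Rps18 were not called (0.97 and 0.95). Rplp0, of the ribosomal stalk, had 2210, 2430 and 2380 RPKM in TET KO libraries, against 777, 774 and 787 RPKM in TET WT libraries, with wide separation (log2 change 1.58 ± 0.06, limma adjusted p = 4.54e-08). The log2 change was positive for 72 of the 77. The median of the list was 0.43 above that of all genes, and 0.11 above it after quantile normalization. Their summed level was 55100 to 58600 RPKM in TET KO and 42200 to 42800 RPKM in TET WT. These genes have processed copies that can share reads. Of 18 housekeeping genes 6 were higher and none lower, with a median 0.45 above that of all genes, and 3 were higher after quantile normalization. Of the 6, Tfrc and Pgk1 were not called without TET KO replicate 3 (0.95 and 0.94) or after quantile normalization (0.93 and 0.89).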
